A study of Mus musculus with 24 samples.

Results

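The gene of fibronectin and the genes of 9 integrin subunits that form its receptors were followed by RNA sequencing in primary mouse microglia, the resident macrophages of the brain. The 10 genes were taken by name: Fn1, Itga4, Itga5, Itgav, Itgb1, Itgb3, Itgb5, Itgb2, Itgam and Itgax. They are 10 of the 18919 genes of the count table, and all 10 were among the 13294 genes that passed the filter on low counts. The cells came from C57BL/6 mice (WT) or from B6.129S4-Cd14tm1Frm/J mice (KO), which lack CD14, the surface protein that hands lipopolysaccharide (LPS) to the TLR4 receptor complex. Both strains are labelled with the age p0. Cells of each genotype were left untreated or received Re-LPS, a rough form of the endotoxin, at 0.1 or 10 ng/ml, or mouse fibronectin at 100 µg/ml, and every group was taken at 3 h. The 8 groups hold 3 libraries each, from independent cell preparations. The strain names differ beyond the Cd14 allele, so the allele and its background cannot be told apart. In bulk RNA, more cells of a type and more RNA per cell cannot be told apart either.

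Fibronectin is a large glycoprotein of plasma and extracellular matrix that cells assemble into fibrils. Integrins are receptors of 1 alpha and 1 beta subunit that bind matrix proteins outside the cell and couple to the actin cytoskeleton inside it. The receptor of the Itga5 and Itgb1 products and those of the Itgav product with partner beta subunits bind the RGD peptide of fibronectin, whereas the Itga4 product binds an alternatively spliced segment of fibronectin and the vascular adhesion molecule VCAM1. The Itgb2 product is the shared beta subunit of the leukocyte integrins, and with the Itgam product it makes CD11b/CD18, the complement receptor by which microglia are commonly identified.

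Total counts ran from 14939019 to 22143774 per library. Levels are given as CPM, read counts relative to a library size that was rescaled by edgeR's TMM method. Cd14 lay between 338 and 5329 CPM in the 12 WT libraries and between 2.14 and 6.37 CPM in the 12 KO libraries. The summed level of 8 microglial markers ran from 5137 to 8179 CPM. That of 13 markers of fibroblasts and vascular cells ran from 56.7 to 135 CPM, with Cspg4 at 20.4 to 119 CPM, while Col1a1, Col1a2, Col3a1, Dcn, Lum and Cldn5 did not exceed 0.625 CPM in any library. The 4 markers of border macrophages summed to 123 to 395 CPM, nearly all of it Mrc1, with Cd163 and Lyve1 at 0.398 CPM or less. Astrocyte markers summed to 11.5 to 44.6 CPM, oligodendrocyte-lineage markers to 45.4 to 285 CPM, neuronal markers to 0.813 to 30.4 CPM, and markers of other leukocytes to 1.69 to 18.6 CPM. Libraries of 1 genotype with the same replicate number deviated together, so each result for a stimulus is also given with a block for the number within the genotype (the nested block) where that changed the call.

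Per kilobase of exon, 4 integrin genes shared the top level in untreated WT microglia. Itgb2 stood at 165 ± 29.4 CPM per kb (mean ± SD, n = 3), Itgam at 154 ± 15.1, Itgb1 at 152 ± 9.17 and Itgb5 at 152 ± 14.2 CPM per kb, and these neighbours did not differ beyond their spread. Fn1 followed at 60.7 ± 29.2 CPM per kb, overlapping with Itga5 at 43.8 ± 7.36 and Itgav at 36.8 ± 4.54 CPM per kb. Itga4, Itgb3 and Itgax were the lowest, at 7.58 ± 1.26, 5.94 ± 1.96 and 5.26 ± 1.62 CPM per kb, and also overlapped. With fibronectin the WT order became Itgb1 (267 ± 5.66), Itga5 (244 ± 17.5), Itgb2 (196 ± 31.3), Itgam (176 ± 10.0), Fn1 (165 ± 76.0), Itgav (153 ± 37.5), Itgb5 (72.3 ± 1.81) and Itga4 (49.5 ± 3.89 CPM per kb), with Itgax and Itgb3 last. Thus the gene of the alpha chain of the RGD receptor lay far below that of its partner Itgb1 in untreated cells and within reach of it after fibronectin. In KO cells with fibronectin Itga5 stood at 235 ± 51.1 CPM per kb and Itgb1 at 182 ± 32.5, while Itgav stood at 50.0 ± 15.6 and Itga4 at 11.6 ± 5.37 CPM per kb.

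**Figure D1:**
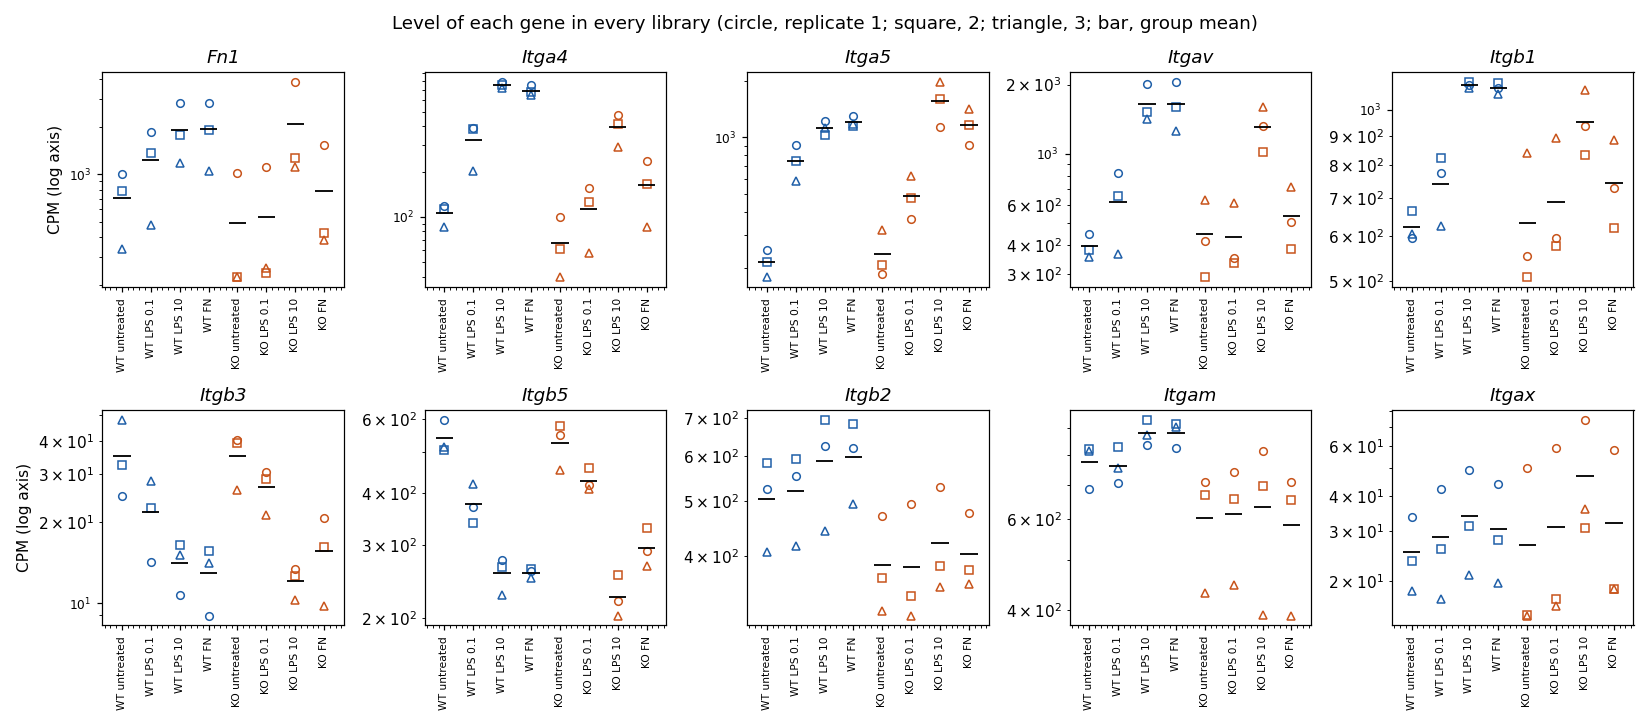
Level of the 10 genes in all 24 libraries, in CPM on a log axis, 1 panel per gene and 1 column per group (WT blue, KO orange). Symbols give the replicate number and bars the group means. Fn1 spreads over several-fold within every group, while WT Itgb1 and Itgb5 lie close together.

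The stimuli moved the fibronectin receptor genes in both directions in WT cells. Calls rest on edgeR's quasi-likelihood test with a Benjamini-Hochberg adjusted p below 0.05 over all tested genes, and each change is a log2 fold change with its standard error. With LPS at 10 ng/ml, 4 of the 10 genes were called higher and 2 lower, when 49.4% of all genes were called (23.3% higher and 26.1% lower). Fibronectin called the same counts, 4 higher and 2 lower, against 50.2% of all genes (23.7% higher and 26.5% lower). LPS at 0.1 ng/ml called 2 higher and 1 lower, against 15.6%. In KO cells LPS at 10 ng/ml called 5 higher and 2 lower, against 42.9% (21.2% higher and 21.6% lower), and fibronectin called 2 higher and 2 lower, against 16.4% (9.23% and 7.17%). LPS at 0.1 ng/ml called none of the 10 in KO cells, where 0.73% of all genes were called. There 2 of the 10 had an unadjusted p under 0.05, and DESeq2 called 1. The shares of members called with the high LPS dose and with fibronectin in WT cells were close to those of all genes. The median change of the 10 was 0.63 with LPS at 10 ng/ml and 0.54 with fibronectin in WT, and 0.70 and 0.24 in KO. Over all genes tested the medians were -0.0059, 0.0052, -0.013 and -0.019.

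Some of the marker genes also passed the test. Of the 8 microglial markers, 0 higher and 2 lower were called with high LPS and 0 higher and 4 lower with fibronectin in WT (median -0.63), 1 higher and 3 lower and 0 higher and 0 lower in KO, and 4 higher and 0 lower for KO against WT with fibronectin, with 3 higher and 0 lower in that interaction. Their sum was 6873 to 8179 CPM untreated and 5284 to 5793 CPM with fibronectin in WT, and 6961 to 7202 and 7056 to 7363 CPM in KO. Of the 7 tested markers of fibroblasts and vascular cells, 4 higher and 1 lower were called with high LPS in WT (median 1.49) and 3 higher and 1 lower with fibronectin (median 1.33), 2 higher and 0 lower and 1 higher and 0 lower in KO, 1 higher and 4 lower for KO against WT with fibronectin (median -1.64) and 0 higher and 2 lower in that interaction (median -1.25). Their sum was 65.3 to 99.5 CPM untreated and 59.9 to 99.9 CPM with fibronectin in WT, and 57.8 to 112 and 63.6 to 129.7 CPM in KO. Both tested markers of other leukocytes were called higher with high LPS and with fibronectin in each genotype, and the sum was 2.02 to 2.39 CPM untreated and 14.4 to 18.6 CPM with fibronectin in WT, and 1.69 to 3.23 and 5.04 to 9.63 CPM in KO. The part of these cell types in the changes of the 10 genes was not tested.

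With the nested block the counts rose along with the background. In WT cells 7, 10 and 9 of the 10 genes were called with LPS at 0.1 and 10 ng/ml and fibronectin, against 41.5%, 70.2% and 72% of all genes. The KO cells gave 2, 8 and 6 of 10, against 3.87%, 66% and 44%.

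**Figure D2:**
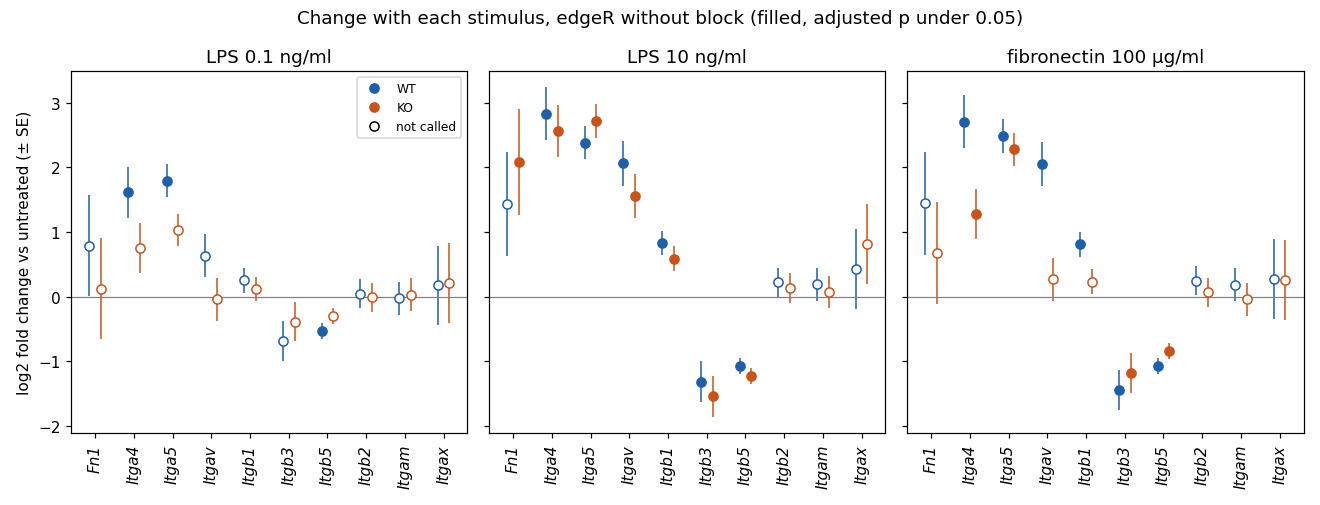
Log2 fold change ± standard error of the 10 genes against untreated cells of the same genotype, for each stimulus (WT blue, KO orange; filled points passed the test without a block). With fibronectin Itga5 lies at 2.48 in WT and 2.28 in KO, whereas Itgav lies at 2.05 and 0.27.

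Fn1 (GRCm38, chromosome 1, 71585520 to 71653200, minus strand), the ligand itself, differed several-fold between preparations, the highest library of a group holding 2.40 to 4.67 times the level of the lowest. In WT replicates 1, 2 and 3 it stood at 1009, 780.4 and 337 CPM untreated, 1846, 1352 and 478 CPM with LPS at 0.1 ng/ml, 2812, 1759 and 1170.2 CPM with LPS at 10 ng/ml, and 2829, 1894 and 1054 CPM with fibronectin. The KO replicates 1, 2 and 3 gave 1021, 223 and 223 CPM untreated, 1109, 237 and 254 CPM with LPS at 0.1 ng/ml, 3845, 1262 and 1108 CPM with LPS at 10 ng/ml, and 1527, 423 and 385 CPM with fibronectin. Replicate 1 was the highest of its group in all 8 groups. The WT libraries with LPS at 10 ng/ml or fibronectin all lay above the untreated ones, but without a block the changes of 1.43 ± 0.80 (adjusted p = 0.153) and 1.44 ± 0.80 (adjusted p = 0.149) were not called. With the compared groups alone both were (adjusted p = 0.0435 and 0.0486). A block for the replicate number shared by the genotypes also called both (adjusted p = 0.000974 and 0.001). Within a replicate number, WT fibronectin libraries held 2.80, 2.43 and 3.13 times the untreated level, and with the nested block Fn1 rose by 1.47 ± 0.13 (adjusted p = 1.91e-08), as it did with LPS at 10 ng/ml (1.49 ± 0.14, adjusted p = 1.68e-08) and at 0.1 ng/ml (0.73 ± 0.13, adjusted p = 0.000248). In KO cells Fn1 rose with LPS at 10 ng/ml by 2.08 ± 0.81 (adjusted p = 0.0466), 3.77, 5.65 and 4.97 times the untreated level within the numbers. That call was lost without KO LPS 10 replicate 1 (1.28, adjusted p = 0.258), KO untreated replicate 2 (1.74, adjusted p = 0.161) or KO untreated replicate 3 (1.74, adjusted p = 0.152), and with no filter on low counts (adjusted p = 0.071), with library totals (adjusted p = 0.0886) and with the compared groups alone (adjusted p = 0.0921). It held with the nested block (2.25 ± 0.14, adjusted p = 2.1e-10). With fibronectin the KO change was 0.67 ± 0.79 (adjusted p = 0.708), called with the nested block at 0.76 ± 0.13 (adjusted p = 0.00016).

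Whether the response of Fn1 to the 2 strong stimuli was called different between the genotypes depended on the block. In WT cells fibronectin and LPS at 10 ng/ml differed by less than the spread (0.0089 ± 0.78, 95% interval -1.65 to 1.67). In KO cells fibronectin gave -1.41 ± 0.80 against LPS (adjusted p = 0.277 without and 4.21e-07 with the nested block). The interaction, which is the KO change minus the WT change, was called with the nested block with fibronectin (-0.71 ± 0.19, adjusted p = 0.00429) and LPS at 0.1 ng/ml (-0.60 ± 0.19, adjusted p = 0.0412), and with the opposite sign with LPS at 10 ng/ml (0.76 ± 0.19, adjusted p = 0.00749). Without a block the 3 had adjusted p = 0.758, 1 and 1. A block for the replicate number shared by the genotypes gave 0.265, 0.647 and 0.408. Untreated, markers of border macrophages summed to 274, 339 and 237 CPM in WT replicates 1, 2 and 3 and to 321, 139 and 195 CPM in KO replicates. KO replicate 1 was the highest of its group in these markers as in Fn1. In WT the highest was replicate 2 in these markers and replicate 1 in Fn1. Fibroblast and vascular markers were at 62.1, 112 and 57.8 CPM in those KO libraries. The part of other cells in the Fn1 spread was not tested.

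Itga5 (chromosome 15, 103344286 to 103366763, minus strand), which pairs with Itgb1 only, rose with each stimulus in WT cells and with the 2 strong ones in KO cells. WT replicates 1, 2 and 3 held 252, 217 and 179 CPM untreated, 905, 747 and 587 CPM with LPS at 0.1 ng/ml, 1226, 1028 and 1117 CPM with LPS at 10 ng/ml, and 1301, 1140.1 and 1168 CPM with fibronectin. Those of KO held 187, 209 and 320.1 CPM untreated, 366, 472 and 620.1 CPM with LPS at 0.1 ng/ml, 1138, 1589 and 1975 CPM with LPS at 10 ng/ml, and 904, 1161 and 1408 CPM with fibronectin. No stimulated library of either genotype overlapped with its untreated group. The WT rises were 1.79 ± 0.25 (adjusted p = 5.26e-05), 2.38 ± 0.26 (adjusted p = 3.51e-07) and 2.48 ± 0.26 (adjusted p = 2.18e-07) with low LPS, high LPS and fibronectin. The KO rises were 2.72 ± 0.26 with LPS at 10 ng/ml (adjusted p = 1.53e-07) and 2.28 ± 0.26 with fibronectin (adjusted p = 4.87e-06). With LPS at 0.1 ng/ml the KO change of 1.03 ± 0.25 missed the threshold (adjusted p = 0.0729). It was called with the nested block (adjusted p = 9.02e-07), with DESeq2 (adjusted p = 0.00574), without KO LPS 0.1 replicate 1 (1.19, adjusted p = 0.0484) and without KO untreated replicate 3 (1.30, adjusted p = 0.0261). The genotypes were not called different with fibronectin: KO minus WT was -0.055 ± 0.25 (95% interval -0.58 to 0.47) and the interaction -0.20 ± 0.35 (95% interval -0.94 to 0.54). With LPS at 0.1 ng/ml the interaction of -0.76 ± 0.35 was called with the nested block (adjusted p = 0.000862, against 0.448).

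Itgav (chromosome 2, 83724397 to 83806916, plus strand), whose product joins several beta chains to bind RGD ligands, was the 1 member of the 10 whose fibronectin response was called different between the genotypes without a block in edgeR, where 23.1% of all genes were called. WT replicates 1, 2 and 3 stood at 449.5, 382 and 355 CPM untreated, 821, 656 and 365 CPM with LPS at 0.1 ng/ml, 2015, 1524 and 1416 CPM with LPS at 10 ng/ml, and 2059, 1605 and 1256 CPM with fibronectin. KO replicates stood at 418, 289.9 and 632 CPM untreated, 353, 335 and 613 CPM with LPS at 0.1 ng/ml, 1318, 1021 and 1593 CPM with LPS at 10 ng/ml, and 507, 386 and 718 CPM with fibronectin. In WT cells every library with high LPS or fibronectin lay above the untreated ones, and Itgav rose by 2.06 ± 0.34 (adjusted p = 5.77e-05) and 2.05 ± 0.34 (adjusted p = 5.92e-05), about 4.18-fold and 4.15-fold. KO cells raised it by 1.55 ± 0.34 with LPS at 10 ng/ml (adjusted p = 0.00104). With fibronectin the KO libraries overlapped with untreated ones and the change was 0.27 ± 0.33 (95% interval -0.44 to 0.97, adjusted p = 0.739). The interaction with fibronectin was -1.79 ± 0.47 (adjusted p = 0.00942), that with LPS at 10 ng/ml -0.51 ± 0.47 (95% interval -1.50 to 0.49, adjusted p = 0.813). In KO cells Itgav was lower with fibronectin than with high LPS (-1.29 ± 0.34, adjusted p = 0.0125), though not without KO FN replicate 2 (-1.10, adjusted p = 0.0718). LPS at 0.1 ng/ml gave 0.63 ± 0.33 in WT, called with the nested block (adjusted p = 0.00151, against 0.25), and -0.042 ± 0.33 in KO. The difference between those responses was called with the nested block as well (adjusted p = 0.0349, against 0.816 without). On the other strand the gene overlaps Gm13684 by 22084 bases and the pseudogene Dnmt3l-ps1 by 1253 bases. Neither is named in the count table.

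Itga4 (chromosome 2, 79255426 to 79333123, plus strand), the alpha chain of the VCAM1 and fibronectin receptor, rose the most among the 10 genes in WT cells with high LPS and with fibronectin. WT replicates 1, 2 and 3 held 119, 113 and 85.9 CPM untreated, 388, 384 and 201 CPM with LPS at 0.1 ng/ml, 792, 750.0 and 715 CPM with LPS at 10 ng/ml, and 751, 677 and 645 CPM with fibronectin. In KO replicates the values were 100.4, 61.3 and 39.7 CPM untreated, 157, 126 and 57.9 CPM with LPS at 0.1 ng/ml, 478, 412 and 293 CPM with LPS at 10 ng/ml, and 236, 164 and 86.3 CPM with fibronectin. All stimulated WT libraries lay above the untreated ones, with rises of 1.61 ± 0.39, 2.83 ± 0.41 and 2.71 ± 0.41 for low LPS, high LPS and fibronectin (adjusted p = 0.00711, 1.13e-05 and 1.72e-05). The KO rise with high LPS was 2.56 ± 0.40 (adjusted p = 4.65e-05). With fibronectin it was 1.27 ± 0.39 (adjusted p = 0.0299), the libraries overlapped, and the call was lost without KO FN replicate 1 (0.90, adjusted p = 0.175), KO FN replicate 2 (1.27, adjusted p = 0.0619), KO untreated replicate 2 (1.21, adjusted p = 0.104) or KO untreated replicate 3 (1.01, adjusted p = 0.119), and with the compared groups alone (adjusted p = 0.151). Within the numbers the fibronectin libraries held 6.32, 5.98 and 7.51 times the untreated level in WT and 2.35, 2.68 and 2.18 times in KO. The interaction of -1.43 ± 0.54 missed the threshold (adjusted p = 0.0666). It was called with the nested block (adjusted p = 5.17e-05), with DESeq2 (adjusted p = 0.0245), without KO FN replicate 1 (adjusted p = 0.0267) and without KO untreated replicate 3 (-1.70, adjusted p = 0.0313). With LPS at 0.1 ng/ml the KO change of 0.76 ± 0.38 and the interaction of -0.86 ± 0.54 were called with the nested block (adjusted p = 0.0116 and 0.0205, against 1 and 0.736). The gene overlaps Cerkl on the other strand by 2581 bases. Cerkl held 40 counts in all libraries together, against 122050 for Itga4.

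**Figure D3:**
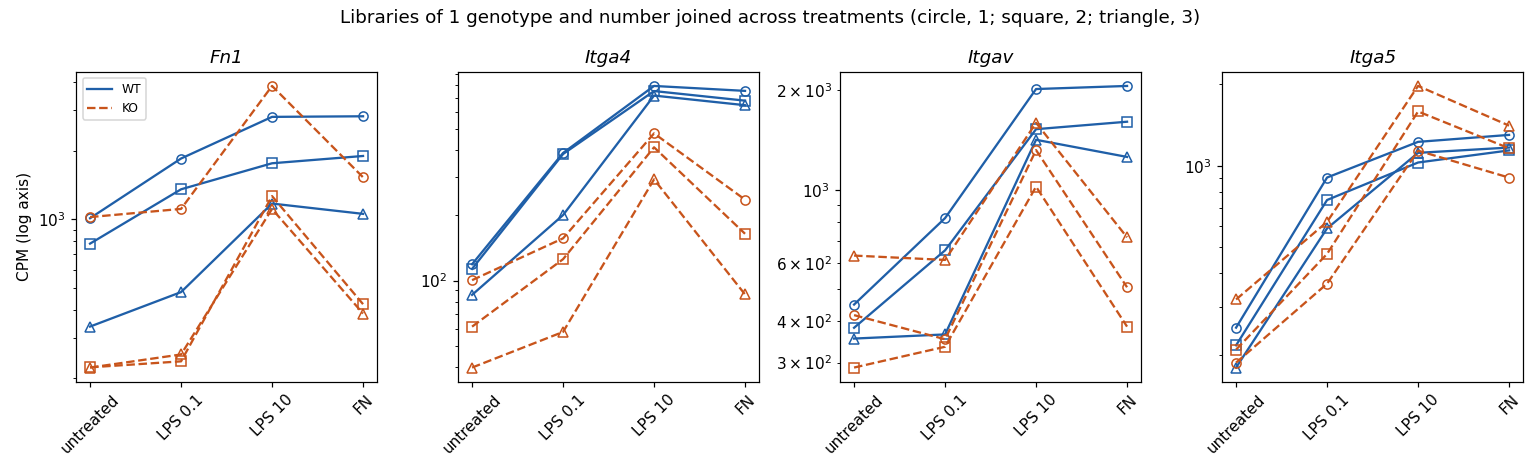
CPM on a log axis of Fn1, Itga4, Itgav and Itga5 across the 4 treatments, with libraries of 1 genotype and replicate number joined (WT solid blue, KO dashed orange). The KO lines of Fn1, Itga4 and Itgav drop from LPS at 10 ng/ml to fibronectin, as do those of Itga5, while the WT fibronectin libraries hold 0.89 to 1.11 times the level of LPS at 10 ng/ml.

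The bases just upstream of the genes are shown because Itga5, Itga4 and Itgav rose together in WT cells while Itgb5 fell. RefSeq promoters on GRCm38.p6 were matched for 7 of the 10 genes, and the 250 bases before the start are printed for 4 of them, 5' to 3' on the gene's own strand, with capitals for matches on either strand to short motifs.
Itga5 (chr15:103366792-103367041, minus strand): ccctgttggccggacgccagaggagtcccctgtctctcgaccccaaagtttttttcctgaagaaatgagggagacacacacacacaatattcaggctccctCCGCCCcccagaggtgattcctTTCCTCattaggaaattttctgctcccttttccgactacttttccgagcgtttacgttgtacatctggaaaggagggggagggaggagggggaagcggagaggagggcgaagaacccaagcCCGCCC
Itgav (chr2:83724147-83724396, plus strand): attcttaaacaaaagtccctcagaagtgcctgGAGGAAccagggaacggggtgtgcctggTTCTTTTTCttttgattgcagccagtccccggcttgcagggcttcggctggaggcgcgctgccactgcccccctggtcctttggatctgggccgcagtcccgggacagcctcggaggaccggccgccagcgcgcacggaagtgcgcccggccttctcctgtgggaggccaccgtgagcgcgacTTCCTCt
Itga4 (chr2:79255176-79255425, plus strand): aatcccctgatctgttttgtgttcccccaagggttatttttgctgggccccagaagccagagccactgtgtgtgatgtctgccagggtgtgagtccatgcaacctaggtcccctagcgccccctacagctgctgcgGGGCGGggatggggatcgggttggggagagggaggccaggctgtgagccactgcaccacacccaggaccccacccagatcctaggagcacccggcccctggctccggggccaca
Itgb5 (chr16:33829415-33829664, plus strand): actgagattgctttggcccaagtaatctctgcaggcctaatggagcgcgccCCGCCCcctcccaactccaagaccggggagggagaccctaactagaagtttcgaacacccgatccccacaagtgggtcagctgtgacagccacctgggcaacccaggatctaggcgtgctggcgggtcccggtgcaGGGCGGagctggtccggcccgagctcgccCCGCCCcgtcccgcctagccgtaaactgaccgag
The motifs searched were GGGCGG (Sp1), GAGGAA (PU.1), TGANTCA (AP-1), TGACGTCA (CRE), GAAANNGAA (core of the interferon response element) and the NF-kB site. Sp1 letters occurred 2 times in the Itga5 window, 3 times in that of Itgb5 and 1 time in that of Itga4, and are found in 32.7% of 32851 promoters of the same length. PU.1 letters, found in 23.3%, occurred 1 time before Itga5 and 2 times before Itgav. The interferon core, found in 7.13%, occurred 1 time before Itgav, on the minus strand from 190 to 182 bases before the start. Neither the AP-1 letters (6.75%) nor the CRE letters (1.55%) nor the NF-kB site (3.9%) were in these 4 windows. Of the matched genes not printed, Itgb1 and Itgam held Sp1 and PU.1 letters. Itgax held AP-1 letters from 56 to 50 bases before the start. A match describes letters only.

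Itgb1 (chromosome 8, 128685654 to 128733200, plus strand), the partner of both Itga5 and Itga4, rose less than its alpha chains. WT replicates 1, 2 and 3 gave 596, 665 and 606 CPM untreated, 774, 823 and 625 CPM with LPS at 0.1 ng/ml, 1106, 1119.5 and 1090.3 CPM with LPS at 10 ng/ml, and 1093, 1112 and 1066 CPM with fibronectin. The KO replicates gave 554, 508 and 838 CPM untreated, 596, 576 and 892 CPM with LPS at 0.1 ng/ml, 938, 832 and 1081 CPM with LPS at 10 ng/ml, and 729, 621 and 884 CPM with fibronectin, with KO replicate 3 the highest in each of the 4 groups. In WT cells the high LPS and fibronectin libraries all lay above the untreated ones and the rises were 0.83 ± 0.19 (adjusted p = 0.00136) and 0.81 ± 0.19 (adjusted p = 0.00162). Scaled by library totals instead, they came to 0.030 and 0.022 and neither was called, so the direction of Itgb1 holds relative to the other genes and not to the total. The KO rise with high LPS was 0.59 ± 0.19 (adjusted p = 0.0188) and was lost without KO LPS 10 replicate 3 (0.48, adjusted p = 0.0863), KO untreated replicate 1 (0.50, adjusted p = 0.0844) or KO untreated replicate 2 (0.45, adjusted p = 0.106), and with library totals (0.10). The KO change with fibronectin was 0.23 ± 0.19 (adjusted p = 0.513 without and 0.0197 with the nested block). The interaction with fibronectin of -0.58 ± 0.27 was called with the nested block (adjusted p = 0.000674, against 0.147). With LPS at 0.1 ng/ml the WT change of 0.25 ± 0.19 was called with that block too (adjusted p = 0.0239).

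The 2 other beta chains of the RGD receptors among the 10 genes fell. Itgb5 (chromosome 16, 33829665 to 33949338, plus strand), a partner of Itgav, stood at 599, 507 and 516 CPM untreated, 369, 339 and 419 CPM with LPS at 0.1 ng/ml, 275, 265 and 227 CPM with LPS at 10 ng/ml, and 259, 262 and 249.9 CPM with fibronectin in WT replicates 1, 2 and 3. In KO replicates it stood at 550.4, 578 and 454 CPM untreated, 418, 459 and 407 CPM with LPS at 0.1 ng/ml, 219, 253 and 203 CPM with LPS at 10 ng/ml, and 290.4, 329 and 266 CPM with fibronectin. The WT groups did not overlap with the untreated one at any stimulus, and the falls were -0.52 ± 0.12, -1.08 ± 0.12 and -1.07 ± 0.12 for low LPS, high LPS and fibronectin (adjusted p = 0.00525, 6.64e-07 and 6.92e-07). With the compared groups alone the first missed the threshold (adjusted p = 0.0565). Itgb5 also fell in KO cells, with changes of -1.23 ± 0.12 with high LPS (adjusted p = 2.62e-07) and -0.84 ± 0.12 with fibronectin (adjusted p = 8.52e-05). In KO cells the level with fibronectin lay above that with high LPS by 0.39 ± 0.12 (adjusted p = 0.0327), a call lost with no filter on low counts and without any 1 of 4 libraries: KO FN replicate 1 (0.40), KO FN replicate 2 (0.31), KO LPS 10 replicate 1 (0.37) and KO LPS 10 replicate 3 (0.32). With the compared groups alone it was lost as well (adjusted p = 0.178).

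Itgb3 (chromosome 11, 104608000 to 104670476, plus strand), another partner of Itgav, was scarce. WT replicates 1, 2 and 3 held 25.0, 32.4 and 47.8 CPM untreated, 14.2, 22.5 and 28.4 CPM with LPS at 0.1 ng/ml, 10.7, 16.5 and 15.1 CPM with LPS at 10 ng/ml, and 8.99, 15.6 and 14.1 CPM with fibronectin. KO replicates held 40.1, 39.1 and 26.2 CPM untreated, 30.7, 28.7 and 21.2 CPM with LPS at 0.1 ng/ml, 13.4, 12.6 and 10.2 CPM with LPS at 10 ng/ml, and 20.7, 16.2 and 9.78 CPM with fibronectin. High LPS and fibronectin libraries lay below the untreated ones in both genotypes. The Itgb3 changes were -1.31 ± 0.31 and -1.44 ± 0.31 in WT (adjusted p = 0.00167 and 0.000754) and -1.54 ± 0.31 and -1.18 ± 0.31 in KO (adjusted p = 0.000566 and 0.0128). The last was lost without KO FN replicate 3 (-0.93, adjusted p = 0.0744) and with the compared groups alone (adjusted p = 0.0625). With LPS at 0.1 ng/ml the WT change of -0.69 ± 0.31 was called with the nested block (adjusted p = 0.000133, against 0.16).

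None of the 3 leukocyte integrin genes was called for any stimulus without a block. Itgb2 (chromosome 10, 77530252 to 77565708, plus strand) stood at 524, 583 and 407 CPM untreated, 553, 593 and 418 CPM with LPS at 0.1 ng/ml, 625, 694 and 444 CPM with LPS at 10 ng/ml, and 620.3, 682 and 494 CPM with fibronectin in WT replicates 1, 2 and 3. KO replicates gave 470.1, 367 and 321 CPM untreated, 495, 341 and 315 CPM with LPS at 0.1 ng/ml, 529.9, 385 and 354 CPM with LPS at 10 ng/ml, and 477, 379 and 357 CPM with fibronectin, with KO replicate 1 the highest in each group. Its WT changes of 0.22 ± 0.23 with high LPS and 0.25 ± 0.23 with fibronectin were called with the nested block (adjusted p = 0.00436 and 0.00113, against 0.482 and 0.417). With library totals they turned to -0.57 (adjusted p = 0.0253) and -0.53 (adjusted p = 0.0342), so their direction rests on the scaling. Itgam (chromosome 7, 128062640 to 128118491, plus strand) held 686, 822 and 814 CPM untreated, 704, 828 and 753 CPM with LPS at 0.1 ng/ml, 837, 935 and 875 CPM with LPS at 10 ng/ml, and 824, 917 and 905 CPM with fibronectin in the WT replicates. In the KO replicates it held 708, 669 and 431 CPM untreated, 739.7, 658 and 448 CPM with LPS at 0.1 ng/ml, 815, 695 and 391 CPM with LPS at 10 ng/ml, and 710.2, 654 and 391 CPM with fibronectin, and replicate 3 was the lowest in each group. The WT libraries with high LPS and fibronectin all lay above the untreated ones for Itgam, while those of Itgb2 overlapped. The WT Itgam changes of 0.19 ± 0.25 and 0.19 ± 0.25 with the strong stimuli were likewise called with the nested block (adjusted p = 0.0171 and 0.0173, against 0.614 and 0.61) and changed sign with library totals (-0.61 and -0.60). The nested block also called the Itgam interaction with fibronectin (-0.25 ± 0.10, adjusted p = 0.0391, against 0.788 without). Itgam shares 55809 bases on the same strand with the annotated gene Gm49368, so reads there can belong to either. Itgax (chromosome 7, 128129547 to 128150657, plus strand), whose product is the alpha chain CD11c, held 33.8, 23.5 and 18.5 CPM untreated, 42.3, 25.9 and 17.3 CPM with LPS at 0.1 ng/ml, 49.2, 31.4 and 21.0 CPM with LPS at 10 ng/ml, and 44.1, 27.8 and 19.6 CPM with fibronectin in WT replicates. KO replicates held 50.0, 15.2 and 15.1 CPM untreated, 59.2, 17.2 and 16.3 CPM with LPS at 0.1 ng/ml, 74.2, 30.9 and 36.0 CPM with LPS at 10 ng/ml, and 58.2, 18.8 and 18.8 CPM with fibronectin, and replicate 1 was the highest in all 8 groups. It was called with the nested block with high LPS in WT (0.39 ± 0.11, adjusted p = 0.00504) and in KO (0.94 ± 0.11, adjusted p = 4.76e-07), and in their difference (0.55 ± 0.16, adjusted p = 0.0175). The KO change was also called with the number as a block over all libraries (adjusted p = 0.00182). Without a block these 3 had adjusted p = 0.646, 0.329 and 1.

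Without a stimulus the genotypes were not called different at any of the 10 genes, where 0.00752% of all genes were called. None of the 10 had an unadjusted p under 0.05, and DESeq2 called none. The Itga4 difference of -0.66 ± 0.38 had a 95% interval of -1.47 to 0.15. With fibronectin 3 genes were lower in KO cells and none higher, against 38.6% of all genes called. These were Itga4 (-2.09 ± 0.40, adjusted p = 0.000331), Itgav (-1.61 ± 0.34, adjusted p = 0.000851) and Itgb1 (-0.55 ± 0.19, adjusted p = 0.0291). The libraries of the genotypes did not overlap at any of the 3. Nor did they at uncalled Itgb2 and Itgam, lower in KO, and uncalled Itgb5, higher in KO. The Itgb1 call was lost without any 1 of KO FN replicate 1 (-0.53), KO FN replicate 2 (-0.43) and WT FN replicates 1, 2 and 3 (-0.55, -0.53 and -0.57). With library totals its direction turned (0.10, adjusted p = 0.667), and Itga5 became higher in KO (0.61, adjusted p = 0.0341), while Itga4 (-1.43, adjusted p = 0.0024) and Itgav (-0.95, adjusted p = 0.00786) were still called lower. Itgb2 (-0.57 ± 0.23, adjusted p = 0.0577) and Itgam (-0.59 ± 0.25, adjusted p = 0.0764) were called without KO FN replicate 1 (-0.70 and -0.75), and Itgb2 also without WT FN replicate 3 (-0.69). With LPS at 0.1 ng/ml Itga4 alone of the 10 was lower in KO cells (-1.52 ± 0.39, adjusted p = 0.0182), against 9.3% of all genes. That call was lost without KO LPS 0.1 replicate 3 (-1.20), WT LPS 0.1 replicate 1 (-1.37) or WT LPS 0.1 replicate 2 (-1.37), and with the compared groups alone (adjusted p = 0.149). With LPS at 10 ng/ml edgeR called none of the 10, against 15.9%. There 1 had an unadjusted p under 0.05 and DESeq2 called none.

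The replicate number was also entered as a block shared by the genotypes, though the labels do not say that a WT and a KO number belong together. Between genotypes at the same treatment, 9 of 24 libraries were closest to the library of their own number. With this block 0, 3, 2 and 6 of the 10 genes were called lower in KO cells untreated, with low LPS, with high LPS and with fibronectin, against 0.143%, 18.9%, 25.1% and 50.1% of all genes. The genes gained were Fn1 and Itgb2 with low LPS (adjusted p = 0.00712 and 0.0266), Itga4 and Itgb2 with high LPS (adjusted p = 0.00336 and 0.0152), and Fn1, Itgb2 and Itgam with fibronectin (adjusted p = 0.00107, 0.00199 and 0.0185). With this block the fibronectin interaction was called for Itga4 (adjusted p = 0.0016) and Itgav (adjusted p = 0.00448). With fibronectin and no block, the interaction of genotype and stimulus was called for Itgav alone of the 10 (23.1% of all genes). Without a block it was called for none of the 10 with LPS at 0.1 or 10 ng/ml (2.29% and 5.28%). At those doses 1 and 0 had an unadjusted p under 0.05 and DESeq2 called none. With library totals the Itgb5 interaction with fibronectin was called as well (0.87, adjusted p = 0.00619). The nested block called 4, 2 and 5 of 10 for low LPS, high LPS and fibronectin, against 13.4%, 21.7% and 49.3%.

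In WT cells none of the 10 genes was called different between fibronectin and LPS at 10 ng/ml, nor was any other gene tested (0% without a block and 0% with the nested block). Of the 10, 0 had an unadjusted p under 0.05, and DESeq2 called none. The largest difference was that of Itgax, -0.15 ± 0.61 with a 95% interval of -1.45 to 1.15, and the Itgb5 interval was the narrowest, -0.25 to 0.26. In KO cells Itga4 (-1.28 ± 0.39, adjusted p = 0.0282) and Itgav were lower and Itgb5 was higher with fibronectin than with high LPS, against 17% of all genes called, and 8 of 10 were called with the nested block, against 44.8%. Itga5 differed by -0.44 ± 0.25 between them in KO, called with the nested block (-0.42 ± 0.091, adjusted p = 0.000957, against 0.276 without it). The Itga4 call was lost without KO FN replicate 2 (-1.29), KO FN replicate 3 (-0.98), KO LPS 10 replicate 1 (-1.12) or KO LPS 10 replicate 2 (-1.25), and with library totals (adjusted p = 0.0588). These comparisons share libraries with those against untreated cells.

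Between the LPS doses, Itgav (1.43 ± 0.34, adjusted p = 0.00306), Itga4 (1.21 ± 0.39, adjusted p = 0.0212) and Itgb1 (0.58 ± 0.19, adjusted p = 0.0269) were higher and Itgb5 (-0.55 ± 0.12, adjusted p = 0.00177) lower at 10 than at 0.1 ng/ml in WT cells, against 32.2% of all genes. Itga5, which was already high at 0.1 ng/ml, gave 0.59 ± 0.25 (adjusted p = 0.0773) and was called without WT LPS 0.1 replicate 1 (0.75). The Itgb1 call was lost without WT LPS 10 replicate 1, 2 or 3 (0.58, 0.57 and 0.59) or WT LPS 0.1 replicate 3 (0.47). The Itga4 call was lost without WT LPS 10 replicate 1 (1.17) or WT LPS 0.1 replicate 3 (0.96), and with library totals (0.68), which also ended the Itgb1 call (0.026). Without the libraries in which the ribosomal RNA gene Rn45s took over 1% of counts (WT LPS 0.1 replicate 3, WT LPS 10 replicate 3 and KO LPS 0.1 replicate 2), Itga4, Itgb1 and Itgb5 were not called between the doses in WT (adjusted p = 0.18, 0.19 and 0.0683). In KO cells Itga4 (3.48-fold), Itga5 (1.69 ± 0.25) and Itgav (1.59 ± 0.34) were higher and Itgb3 (-1.16 ± 0.31) and Itgb5 (-0.93 ± 0.12) lower at the higher dose, with adjusted p = 0.00134, 3.65e-05, 0.00108, 0.00656 and 1.02e-05, against 36.7% of all genes. Fn1 (1.96 ± 0.81, adjusted p = 0.0675) was called without KO LPS 0.1 replicate 1 (3.08) and Itgb1 (0.47 ± 0.19, adjusted p = 0.0652) without KO LPS 0.1 replicate 3 (0.70). The nested block called 9 of 10 in WT and 9 of 10 in KO, against 57% and 62.8% of all genes.

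With fibronectin the Itga5 share of the integrin transcripts was higher and the Itgb5 share lower than in untreated cells of either genotype. As a share of the summed CPM per kb of the 9 integrin genes, a measure that does not depend on the library scaling, Itga5 was 6.03% ± 0.813 (SD, n = 3) in untreated WT cells, 17.7% ± 2.09 with low LPS, 19.7% ± 1.81 with high LPS and 20.9% ± 1.33 with fibronectin. In KO cells it was 7.38% ± 2.23, 14.2% ± 3.52, 30.4% ± 7.32 and 28.6% ± 5.72. The Itgb5 share was 21.1% ± 2.08 untreated and 6.22% ± 0.288 with fibronectin in WT, and 22.7% ± 3.33 and 10.2% ± 1.48 in KO. Itgav held 5.09% ± 0.528 untreated and 13.2% ± 1.8 with high LPS in WT. In KO it held 6.31% ± 2.37 untreated, 11.7% ± 2.004 with high LPS and 6.05% ± 1.67 with fibronectin. The Itgb1 share was 21.1% ± 1.10 in untreated and 23.0% ± 1.19 in fibronectin-treated WT cells. The Itgb2 share was 22.7% ± 2.80 and 16.8% ± 1.90 in those cells, that of Itgam 21.4% ± 2.70 and 15.1% ± 1.67, and that of Itgax 0.723% ± 0.205 and 0.538% ± 0.190. In KO the Itgb2 share was 19.2% ± 3.22 untreated and 16.2% ± 2.66 with fibronectin, and the Itgam share 18.3% ± 4.57 and 14.3% ± 4.47. Shares of 1 sum are tied to each other, and no test was run on them.

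**Figure D4:**
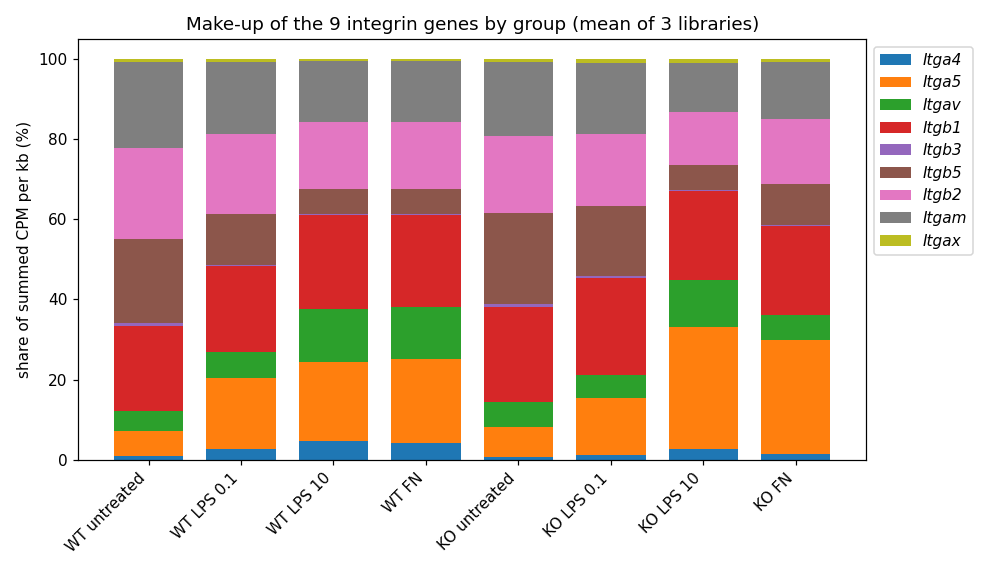
Stacked bars of the mean share, in percent, of each of 9 integrin genes in their summed CPM per kb, for the 8 groups. The Itga5 segment widens from 6.03% to 20.9% in WT and from 7.38% to 28.6% in KO with fibronectin.

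The scaling of the libraries sets the zero of these changes. Library totals in place of TMM moved the median of all genes by -0.24, -0.80 and -0.79 for low LPS, high LPS and fibronectin in WT cells, and by -0.14 with fibronectin and -0.49 with high LPS in KO cells. It moved the median by 0.66 for KO against WT with fibronectin and by 0.65 for that interaction. The share of higher calls among all calls went from 63.7% to 36.7%, from 47.1% to 16.3% and from 47.3% to 16.8% for those WT comparisons, and from 49.5% to 21.1% and 56.3% to 43.2% for high LPS and fibronectin in KO. For KO against WT it went from 31.9% to 52.1%, 50.6% to 84.2% and 54.5% to 86.0% with low LPS, high LPS and fibronectin, and for the interactions with the last 2 from 37.2% to 77.8% and 51.0% to 86.1%. For fibronectin against high LPS in KO it went from 44.5% to 82.3%, and between the doses from 45.9% to 12.1% in WT and 49.8% to 20.6% in KO. In WT cells with fibronectin Itga4 (1.92), Itga5 (1.69) and Itgav (1.26) were still called higher and Itgb3 (-2.22) and Itgb5 (-1.85) lower. Scaling by RLE changed no direction among the 10 genes that was called.

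**Figure D5:**
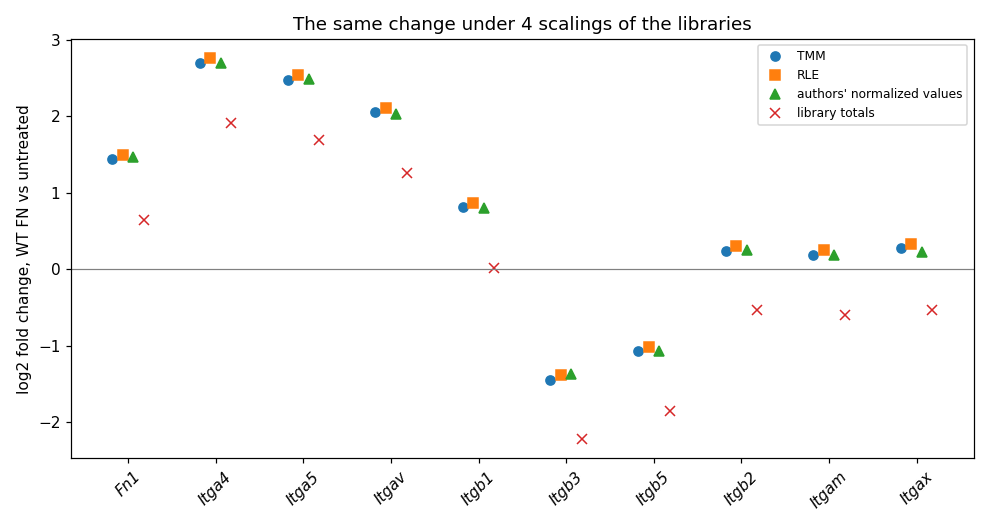
Log2 fold change of the 10 genes with fibronectin in WT cells under 4 scalings: TMM, RLE, the deposited normalized values (limma) and library totals. Library totals shift every gene down, so that Itgb1 falls to 0.022 and Itgb2 to -0.53, while Itga4, Itga5 and Itgav stay above 0.

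The other genes of the pathway were read from 4 lists, which were written from general knowledge and with earlier results of these data known. Of 18 other integrin subunits 10 were tested, with 2 higher and 2 lower for high LPS and 1 higher and 2 lower for fibronectin in WT, and 1 higher and 2 lower and 1 higher and 1 lower in KO. Over all genes tested 49.4%, 50.2%, 42.9% and 16.4% were called in these 4 comparisons, and 0.0052 was the median with fibronectin in WT. Their median change with fibronectin was 0.20 in WT. Itgal, the alpha chain of the leukocyte integrin LFA-1, rose with fibronectin by 2.60 ± 0.49 in WT and 2.16 ± 0.48 in KO (adjusted p = 0.000204 and 0.00413). Itga6, a laminin receptor chain, fell, with changes of -1.30 ± 0.16 in WT and -1.10 ± 0.16 in KO (adjusted p = 1.97e-06 and 9.18e-05). Itga9 was at 0.16 ± 0.24 in WT and was not called.

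Among 40 tested genes of integrin activation and adhesion signalling, 16 higher and 1 lower were called with high LPS and 15 higher and 0 lower with fibronectin in WT, and 14 higher and 1 lower and 10 higher and 0 lower in KO, with a median of 0.49 for fibronectin in WT and 0.14 in KO. The shares of all genes called were again 49.4%, 50.2%, 42.9% and 16.4%. Counting both directions, the list's share of calls lay below that of all genes except with fibronectin in KO. Of all genes 23.3%, 23.7%, 21.2% and 9.23% were called higher, and the list's shares of higher calls lay above these. Its shares of lower calls lay below those of all genes (26.1%, 26.5%, 21.6% and 7.17%). The kinase gene Src rose with fibronectin by 5.71 ± 0.40 in WT and 3.66 ± 0.37 in KO (adjusted p = 1.89e-09 and 1.29e-06), and the interaction was -2.05 ± 0.48 (adjusted p = 0.00367). Zyx, which encodes the focal adhesion protein zyxin, rose by 2.45 ± 0.24 in WT (adjusted p = 7.72e-08) and gave -0.11 ± 0.22 in KO (adjusted p = 0.903), and its interaction was -2.56 ± 0.32 (adjusted p = 1.41e-05). Rap1b, a small GTPase gene of integrin activation, rose by 2.39 ± 0.22 (adjusted p = 3.68e-08). Tln1, the gene of talin, which binds integrin beta tails, gave 0.48 ± 0.22 and was not called (adjusted p = 0.0783).

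Other ligands of these receptors gave 5 higher and 2 lower of 16 tested with fibronectin in WT and 4 higher and 1 lower in KO, and 4 higher and 1 lower and 5 higher and 2 lower with high LPS, against 50.2% and 16.4% of all genes with fibronectin and 49.4% and 42.9% with high LPS. Vcam1, the ligand of the Itga4 receptor, rose by 8.84 ± 0.63 in WT and 3.53 ± 0.55 in KO with fibronectin (adjusted p = 2.1e-09 and 0.000152) from 24 and 23 counts in all untreated libraries of each genotype, with an interaction of -5.30 ± 0.79 (adjusted p = 7.85e-05). Icam1, a ligand of the Itgb2 integrins, rose by 6.36 ± 0.37 and 4.57 ± 0.34 (adjusted p = 2.51e-10 and 4.03e-08), and C3, whose product is cut to a ligand of CD11b/CD18, by 4.11 ± 0.76 and 3.05 ± 0.72 (adjusted p = 0.000162 and 0.00645). Spp1, the gene of the RGD protein osteopontin, gave 0.53 ± 0.31 and -0.14 ± 0.31 and was not called. The 1 ligand gene called lower with fibronectin in KO was Thbs1 (-2.64 ± 0.40, adjusted p = 0.000137). In the list of fibronectin co-receptors, binding partners and matrix assembly, 5 higher and 0 lower of 9 tested were called with fibronectin in WT and 4 higher and 0 lower in KO, and 5 higher and 0 lower and 5 higher and 0 lower with high LPS, against the same shares of all genes. The syndecan gene Sdc4, whose product binds fibronectin beside integrins, rose by 6.87 ± 0.53 and 3.27 ± 0.45 (adjusted p = 5.33e-09 and 4.45e-05). Lox went the other way, with a rise of 3.47 ± 0.58 in WT and a larger one of 4.66 ± 0.63 in KO (adjusted p = 5.93e-05 and 3.73e-05). It started from 164 and 47 counts in all untreated libraries of each genotype, and its interaction was not called. Cd44, a matrix receptor gene, rose by 2.88 ± 0.29 in WT (adjusted p = 1.64e-07) and gave 0.30 ± 0.27 in KO (adjusted p = 0.58), with an interaction of -2.59 ± 0.39 (adjusted p = 9.11e-05). The fibronectin interaction was called lower for 9 of 40 signalling genes, 2 of 16 ligands and 3 of 9 genes of this last list. It was called higher for none of them, and in neither direction for the 10 tested other integrin subunits. Of all genes 23.1% were called in either direction, and 51.0% of those calls were higher. Plaur, the urokinase receptor gene, rose by 3.58 ± 0.35 and 1.57 ± 0.32 (adjusted p = 9.31e-08 and 0.00209).

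Across the 24 libraries, which share preparations and groups, Itgav followed Itgb1 (Pearson r of log CPM 0.951) and Itgb3 followed Itgb5 (0.870). Itga5 ran against both Itgb5 (-0.937) and Itgb3 (-0.929). Fn1 followed Itga4 (0.840) and Itgax (0.826). Of 9581 genes with at least 5 CPM on average, those most alike to Itga5 were Sqstm1 (0.986), Txnrd1 (0.986), Ell2 (0.981). For Itgav they were Gna13 (0.981), Cd44 (0.981), Atp6v1e1 (0.981), and for Itga4 Il20rb (0.981), Il2rg (0.980), Ccl12 (0.979). The genes most like Itgb1 were Arih1 (0.987), Efr3a (0.985), Rock1 (0.981), those most like Itgb5 Zfyve28 (0.972), Eef2k (0.968), Engase (0.964), and those most like Itgb3 Fbxw4 (0.958), Traf3ip3 (0.946), Msrb2 (0.941). Fn1 was closest to Klf3 (0.936), Wsb2 (0.932), Fpr2 (0.927). These are descriptions over libraries that are not independent.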

How the data were processed

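Per the submitters' processing notes, the tools were Bowtie2 2.1.0, HTSeq 0.5.4, SAMtools 0.1.19, DESeq, FastQC 0.10.0 and CASAVA 1.8.2, with build mm10. The annotation and the strand setting are not given in the sources used here. The deposited count table holds whole read counts of 18919 genes, and the authors' normalized signal table equals those counts over 1 factor per library to within 0.00574.

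The counts were tested with edgeR 4.0.16 (R 4.3.3): filterByExpr (13294 genes), TMM scaling, a quasi-likelihood fit of 8 groups over 24 libraries and 17 contrasts, with a prior count of 0.125 and Benjamini-Hochberg adjustment within each contrast. CPM per kb uses the exon union of GENCODE genes on GRCm38, which is mm10. DESeq2 1.42.0 and limma 3.58.1 (log2 of the normalized signal plus 1 or 5), other scalings, filters and blocks, and leaving out each library were alternatives. The fit was tested on simulated data.

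Named genes of the lists were at most 4 that passed the test, by size of change, and at most 2 that did not, by level. The text gives a selection of them, and 1 is not reported here. The members and lists were chosen with earlier results of these data known.

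The labels describe independent preparations. Over 8320 genes, deviations from group means correlated at 0.658 to 0.976 for the same number and genotype (for 24 of 24 libraries the closest other library carried the same number) and at 0.308 to 0.903 between genotypes at the same treatment, where only 9 of 24 did. The pairing comes from the data. Without a block, p-values measure the spread between preparations. With a block they measure the spread that is left once differences between the replicate numbers are taken out, within each genotype for the nested block.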

Additional observations from a re-analysis of the deposited data

Results flagged for a closer look

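The Itgav response to fibronectin differed between the genotypes: KO minus WT was -1.79 ± 0.47 on the log2 scale (adjusted p = 0.00942, edgeR's quasi-likelihood test of the interaction). WT fibronectin libraries held 4.58, 4.20 and 3.54 times the untreated level of their number, and KO ones 1.21, 1.33 and 1.14 times. The difference was -1.12 with library totals (adjusted p = 0.0304), -1.84 with DESeq2 (adjusted p = 0.000799), -1.74 with the nested block (adjusted p = 5.95e-07), and between -2.05 and -1.45 when 1 library was left out (adjusted p from 0.00486 to 0.0342). Of all genes, 23.1% were called in this interaction without a block and 49.3% with the nested block. Itga4 gave -1.43 ± 0.54 there (adjusted p = 0.0666 without a block and 5.17e-05 with the nested block).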

How the results depend on the processing

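Among values of the 10 genes in 17 comparisons that passed the test in either setting, 4 changed sign, all with library totals: Itgb2 with LPS at 10 ng/ml (-0.57) and fibronectin (-0.53) in WT, and Itga5 (0.61) and Itgb1 (0.10) for KO against WT with fibronectin. The cause was not tested, beyond that this scaling shifts all genes. Values that passed in neither setting changed sign 37 times with library totals, 7 times with limma at either pseudocount, 7 times with the replicate block over all libraries, 122 times of 1200 when 1 library was left out, and 2 to 8 times in other settings except RLE and DESeq2, which had none. Counts of the 10 genes called moved in several settings, and a selection of these counts follows. With library totals they were 1 and 5 for KO against WT with LPS at 10 ng/ml and fibronectin, and 2 for the fibronectin interaction. DESeq2 gave 1 for LPS at 0.1 ng/ml in KO, 5 for KO against WT with fibronectin and 2 for the fibronectin interaction. A minimum of 5 CPM in 3 libraries gave 1 for LPS at 0.1 ng/ml in KO. The compared groups alone, which leave fewer samples, gave 2 for fibronectin in KO, 0 and 1 for KO against WT with LPS at 0.1 and 10 ng/ml, and 1 for fibronectin against LPS in KO. The replicate block over all libraries gave 1 for LPS at 0.1 ng/ml in KO, 3, 2 and 6 for KO against WT with low LPS, high LPS and fibronectin, 2 for the fibronectin interaction, 5 for fibronectin against LPS in KO and 8 between the doses in KO. The nested replicate block lost no call and gave 7 and 10 for low and high LPS in WT, 2 for low LPS in KO, 4, 2 and 5 for the interactions with low LPS, high LPS and fibronectin, 8 for fibronectin against LPS in KO, and 9 between the doses in WT and 9 in KO. Without the libraries over 1% Rn45s the doses in WT gave 1. Leaving out 1 library gave 1 to 2 for the fibronectin interaction, 0 to 2 for fibronectin against LPS in KO, 0 to 1 for low LPS in KO, 0 to 1 for KO against WT with low LPS and 2 to 5 between the doses in WT.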
